A study of Mus musculus with 6 samples.

Results

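The mRNAs studied here are 10 of the 13 mRNAs that the mouse mitochondrial genome encodes, *mt-Nd1*, *mt-Nd2*, *mt-Nd4*, *mt-Nd5*, *mt-Nd6*, *mt-Cytb*, *mt-Co1*, *mt-Co2*, *mt-Co3* and *mt-Atp6*. They were chosen by name, as the rows of the count table whose Ensembl identifiers carry these symbols in the GENCODE M21 annotation of GRCm38, and all 10 were found among the 54532 genes of the table. Wild-type ICR mice received a subcutaneous injection of 1e+11 viral genomes of AAV9 at 6 d of age, and hearts were taken at 9 d. The virus carried GFP (the control), YAP5SA or YAP6SA behind the cTnT promoter, which is active in cardiomyocytes (CMs), and CMs of the treated groups are called overexpressing (OE). YAP is a transcriptional coactivator, YAP5SA is a form that the LATS kinases cannot inhibit through its mutated serines, and YAP6SA carries a further substitution that disrupts binding to TEAD, the DNA-binding partner of YAP. CM nuclei were enriched with an antibody to PCM-1, and polyadenylated RNA from them was made into libraries that do not keep the strand. There were 2 libraries per group. Batches 1 and 2 each held 1 library of every group, numbered as its replicate. Whether each library came from 1 heart is not given in the sources used here. The p-values below therefore set differences between groups against the spread between these 6 libraries.

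The mitochondrial genome is a small circle of DNA that is transcribed inside the mitochondrion by its own polymerase, POLRMT. Both strands are read as long RNAs, which are cut at the tRNAs between the genes and then polyadenylated, and the mRNAs are translated by ribosomes inside the organelle. The proteins are core subunits of respiratory complexes I, III and IV and of ATP synthase, to which the nucleus supplies the other subunits, and the heart is among the tissues richest in mitochondria. Mitochondria lie outside the nucleus, so these mRNAs are cytoplasmic by origin in a preparation of nuclei.

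The genes lie on chromosome M of GRCm38, where each is annotated as 1 exon without an intron, all of it coding sequence up to the stop codon. Those of complex I are *mt-Nd1* (2751 to 3707), *mt-Nd2* (3914 to 4951), *mt-Nd4* (10167 to 11544), *mt-Nd5* (11742 to 13565) and *mt-Nd6* (13552 to 14070). *mt-Cytb* (14145 to 15288) encodes cytochrome b of complex III. Complex IV, cytochrome c oxidase, takes its catalytic core from *mt-Co1* (5328 to 6872), *mt-Co2* (7013 to 7696) and *mt-Co3* (8607 to 9390), and *mt-Atp6* (7927 to 8607) encodes a subunit of the proton channel of ATP synthase. *mt-Nd6* lies on the minus strand and the other 9 on the plus strand. *mt-Nd6* overlaps the end of *mt-Nd5* on the opposite strand, and without strand information reads from that overlap cannot be assigned to either gene. Outside the overlap, RNA of either strand is counted on the gene annotated there. The counts of *mt-Nd6* can therefore include RNA of the plus strand, and its part in them was not tested. The composition follows the strand. *mt-Nd6* held 28.1% G and 5.97% C, whereas each of the other 9 held more C than G. The start codon was ATG in 7 of the 10, GTG in *mt-Nd1*, ATA in *mt-Nd2* and ATC in *mt-Nd5*, all of which the vertebrate mitochondrial code can read as a start.

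The mRNAs *mt-Co3*, *mt-Nd4* and *mt-Cytb* end in the genome 1 base past their last whole codon. The final 30 bases of each are shown, read from the GENCODE M21 transcripts, with that base in capitals. It is a T, and the poly-A tail that is added to the RNA supplies the A bases that complete the stop codon.
mt-Co3 (chromosome M, 9361 to 9390, plus strand): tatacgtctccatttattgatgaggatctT
mt-Nd4 (chromosome M, 11515 to 11544, plus strand): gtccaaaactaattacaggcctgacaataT
mt-Cytb (chromosome M, 15259 to 15288, plus strand): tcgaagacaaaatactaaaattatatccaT

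Copies of mitochondrial DNA in the nuclear genome bear on the counts of the genes they match, because reads that mapped to several places were left out of the gene counts. A search of all annotated transcripts for stretches of 100 bases shared with the mitochondrial genes found 10 annotated copies, all listed as unprocessed pseudogenes. On the minus strand of chromosome 1 (24611535 to 24616197), 7 copies follow each other in the order of the mitochondrial genome, from the end of *mt-Co1* to the first 876 bases of *mt-Nd4*, and 3 more lie on chromosome 2. The copies of *mt-Co2* (*Gm28661*), *mt-Co3* (*Gm28437*) and *mt-Atp6* (*Gm10925*) on chromosome 1 matched the genes base for base over 681 of 684, 783 of 784 and 678 of 681 bases. That of *mt-Nd4* (*Gm28439*) matched without a mismatch over the first 876 of its 1378 bases. The start of *mt-Co2* and of its copy is shown in lower case because no base differs.
mt-Co2 (chromosome M, 7013 to 7052, plus strand): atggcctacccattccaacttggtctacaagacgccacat
Gm28661 (chromosome 1, 24615526 to 24615565, minus strand): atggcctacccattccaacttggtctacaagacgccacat
*mt-Co1* differs from its copies at more places. Its copy on chromosome 1 (*Gm29216*) covers 492 bases with 6 mismatches, all within the first 40 bases, and its copy on chromosome 2 (*Gm13340*) covers all 1545 bases with 37 mismatches and 97.6% identity. A stretch of 40 bases from each is shown with the mismatches in capitals.
mt-Co1 (chromosome M, 6381 to 6420, plus strand): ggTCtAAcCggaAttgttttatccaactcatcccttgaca
Gm29216 (chromosome 1, 24616158 to 24616197, minus strand): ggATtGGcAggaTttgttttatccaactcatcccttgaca
mt-Co1 (chromosome M, 6008 to 6047, plus strand): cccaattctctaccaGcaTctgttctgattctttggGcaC
Gm13340 (chromosome 2, 22588928 to 22588967, minus strand): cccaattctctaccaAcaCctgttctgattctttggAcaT

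The share of windows of 100 bases that occur once among the annotated transcripts was 100% in *mt-Nd1*, *mt-Nd5*, *mt-Nd6* and *mt-Cytb*. It was 96.8% in *mt-Nd2*, 69.2% in *mt-Co1* and 39.2% in *mt-Nd4*. In *mt-Co2*, *mt-Atp6* and *mt-Co3* it was 0.513%, 0.515% and 0.146%, so that nearly no read of that length can be placed in these 3 genes alone. Their values, and those of their copies, are therefore uncertain, and the other 7 carry 99.8% of all counts on the 10 mRNAs.

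The libraries held 18832871 and 16362077 gene counts in GFP, 19615627 and 17176301 in YAP6SA OE CMs and 14552847 and 17197114 in YAP5SA OE CMs, in the order of the batches. The cell type label was checked against 12 CM markers, all of which were detected. The most abundant of them, the cardiac myosin heavy chain gene *Myh6*, had 17842 and 27942 CPM (counts per 1e+06 counts, scaled by TMM) in GFP. The summed CM markers stood at 63364 and 82458 CPM in GFP, 60846 and 77953 with YAP6SA, and 52761 and 37799 with YAP5SA, where both libraries were below the other 4. In bulk libraries, fewer nuclei of a cell type and less RNA per nucleus cannot be told apart.

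The 10 mRNAs together made up 1.21% and 1.16% of the gene counts in GFP, 1.82% and 2.27% with YAP6SA, and 2.05% and 2.81% with YAP5SA. Every library of either variant lay above both GFP libraries, and the 2 variants overlapped. The means were 1.19% ± 0.0353 in GFP, 2.04% ± 0.317 with YAP6SA and 2.43% ± 0.535 with YAP5SA (SD, n = 2). The share was 1.72 times that of GFP in YAP6SA OE CMs, or 1.503 and 1.95 times within batches 1 and 2. It was 2.05 times that of GFP in YAP5SA OE CMs, or 1.69 and 2.42 times within the batches. An exact permutation test of 2 libraries against 2 cannot give a two-sided p below 0.33, so none is given for the share.

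Levels of different genes were compared as CPM per kb of gene. In GFP, *mt-Co1* had the highest level per kb, 4188 ± 230 (SD, n = 2). It was followed by *mt-Cytb* with 1763 ± 197, *mt-Nd1* with 1214 ± 216, *mt-Nd4* with 750.0 ± 13.6 and *mt-Nd2* with 577 ± 50.7. *mt-Nd5* and *mt-Nd6* came next, with levels per kb of 379.6 ± 64.3 and 332 ± 46.2 whose libraries overlapped. *mt-Co3*, *mt-Co2* and *mt-Atp6* had levels per kb of 8.80 ± 4.22, 8.05 ± 0.449 and 2.98 ± 0.0270, and *mt-Co3* and *mt-Co2* overlapped. All other neighbours in this order were separate in GFP. The first 5 ranks were the same in all 6 libraries, *mt-Nd5* and *mt-Nd6* exchanged places in some, and so did *mt-Co3* and *mt-Co2*. The 3 genes at the bottom are those with nearly no sequence of their own in the reference. Their levels per kb ran from 2.96 to 31.8 over the 6 libraries, against 299 to 9026 for the other 7. When the counts of the 7 were set against their windows found once in place of their length, *mt-Nd4* rose to 2059 CPM per 1000 windows in GFP, above *mt-Cytb* with 1930.

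**Figure D1:**
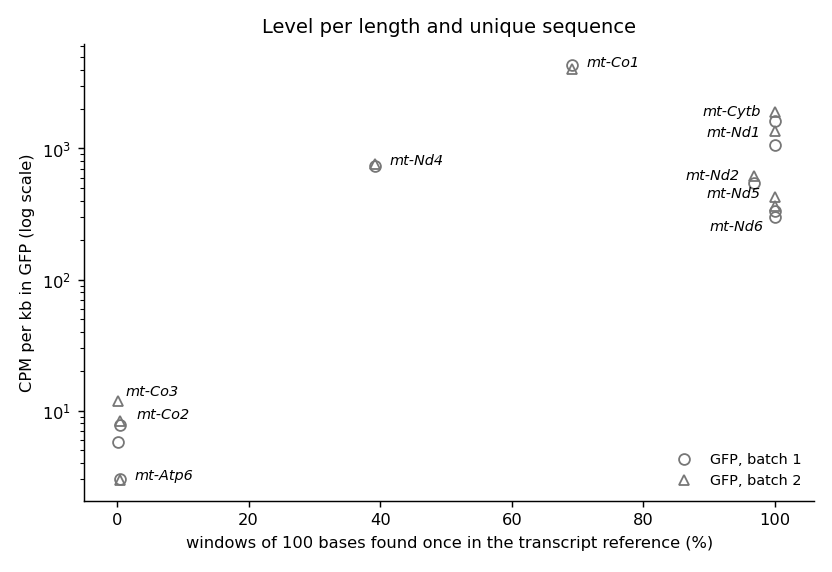
Level of each mRNA in the 2 GFP libraries (CPM per kb, log axis) against the share of its windows of 100 bases found once among annotated transcripts. Circles are batch 1 and triangles batch 2. *mt-Co2*, *mt-Co3* and *mt-Atp6* sit at the lower left with under 1% of such windows, and the other 7 mRNAs lie above 299 CPM per kb.

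Among the complex I genes, *mt-Nd1* had 19381 and 20100 counts in GFP, 30748 and 38498 with YAP6SA, and 24347 and 50335 with YAP5SA. In CPM these were 1015 and 1308, 1559 and 2326, and 1607 and 2811. *mt-Nd4* had 1020 and 1047 CPM in GFP, 1542 and 1872 with YAP6SA, and 1612 and 2298 with YAP5SA. For both genes every variant library exceeded both GFP libraries, and the variants overlapped each other. *mt-Nd2* had 562 and 636 CPM in GFP, 826 and 1192 with YAP6SA, and 870 and 1261 with YAP5SA. *mt-Nd5* had 609 and 775 CPM in GFP, 880 and 1530 with YAP6SA, and 965 and 1298 with YAP5SA, and the highest of its libraries was that of YAP6SA in batch 2. *mt-Nd6*, the minus-strand gene, had 155 and 189 CPM in GFP, 260 and 479 with YAP6SA, and 256 and 445 with YAP5SA. In *mt-Nd2*, *mt-Nd5* and *mt-Nd6* too, no library of a variant reached down to GFP. In each of the 3 groups, batch 2 exceeded batch 1 for all 5 complex I genes.

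*mt-Cytb* had 1858 and 2176 CPM in GFP, 3072 and 4116 with YAP6SA, and 3077 and 4861 with YAP5SA. *mt-Co1*, the catalytic subunit of complex IV, had 6723 and 6220 CPM in GFP, 9942 and 11991 with YAP6SA, and 11260 and 13945 with YAP5SA. In GFP alone, *mt-Co1* was lower in batch 2 than in batch 1. Its share of the counts on the 10 mRNAs ran from 50.3% to 57.2% and was lower in batch 2 in each group. *mt-Cytb* held 15.5% to 18.0% of these counts and *mt-Nd1* 8.16% to 10.6%, both with the higher share in batch 2 in each group. The share of *mt-Nd4* stayed between 7.95% and 8.53%.

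*mt-Co2*, which encodes the subunit that receives electrons from cytochrome c, had 101 and 88 counts in GFP, 148 and 276 with YAP6SA, and 329 and 340 with YAP5SA. *mt-Co3* had 87 and 142, 239 and 243, and 304 and 390 counts in the same order. *mt-Atp6* had 39 and 31, 92 and 73, and 85 and 112 counts. After scaling, the libraries of these 3 genes were separate between all groups, with YAP5SA above YAP6SA and YAP6SA above GFP. Over the 10 mRNAs, both libraries were above both of GFP for 10 in YAP6SA OE CMs (17.3% of all genes tested) and for 10 with YAP5SA (31.2%). Both YAP5SA libraries were above both of YAP6SA for 3 (28.6%).

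**Figure D2:**
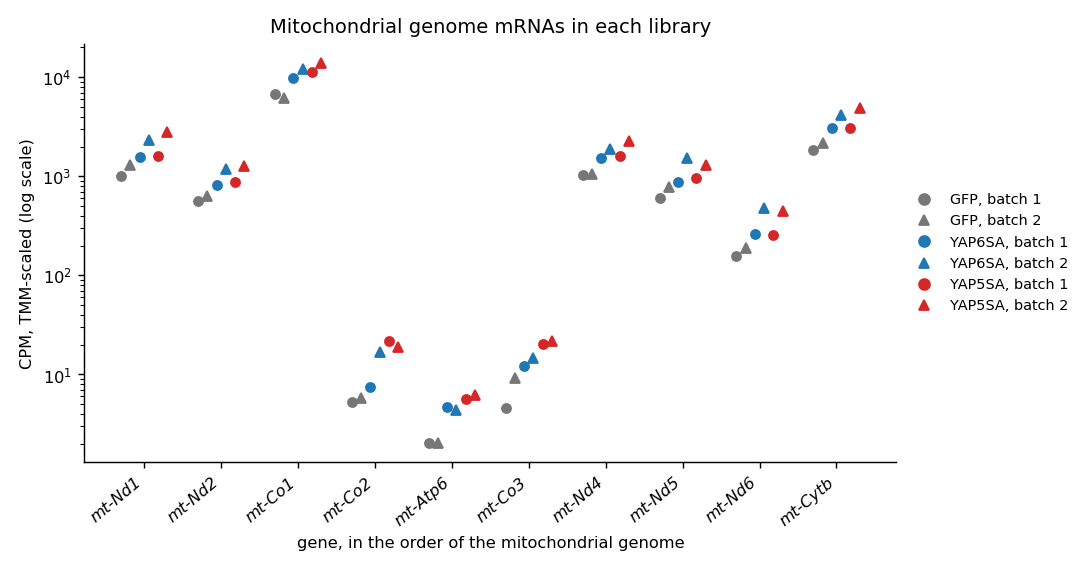
Scaled level of each mRNA (CPM, log axis) in the 6 libraries, in the order of the mitochondrial genome. Grey is GFP, blue YAP6SA and red YAP5SA, with circles for batch 1 and triangles for batch 2. For each of the 10 mRNAs the 4 variant libraries lie above both GFP libraries, and *mt-Co2*, *mt-Atp6* and *mt-Co3* are at 21.8 CPM or less throughout.

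Whether CMs that express the TEAD-binding or the TEAD-independent form of YAP differ from control CMs was asked with edgeR's quasi-likelihood test over the 13323 genes that passed the filter on low counts. The model had terms for group and batch, and FDR is the Benjamini-Hochberg adjusted p over those genes, with a threshold of 0.05. All 10 mRNAs passed the filter. In YAP5SA OE CMs, all 10 were higher than in GFP, with a median log2 fold change of 0.95 and a range of 0.70 to 1.90. FDR values ran from 0.00370 to 0.0298. Of all genes tested, 12.8% were called higher in this comparison and the median log2 fold change was -0.0031. *mt-Co1* rose by a log2 fold change of 0.95 ± 0.27 (standard error; FDR 0.0298), *mt-Cytb* by 0.94 ± 0.22 (FDR 0.0148) and *mt-Nd6* by 0.97 ± 0.18 (FDR 0.00622). *mt-Nd5* had the smallest change, 0.70 ± 0.19 (FDR 0.0275). The 7 genes with sequence of their own had log2 fold changes of 0.70 to 0.97. *mt-Co2*, *mt-Co3* and *mt-Atp6*, with few counts, had 1.90 ± 0.34, 1.66 ± 0.28 and 1.54 ± 0.39.

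All 10 were higher than GFP in both batches, with a median difference of 0.72 in batch 1 and 1.16 in batch 2 on the log2 scale. The number of calls depended on the libraries in the fit. Without the batch term as a block, 6 of the 10 were called in YAP5SA OE CMs, with 9.99% of all genes called higher. Without GFP replicate 2, the 2 that were called were *mt-Co2* and *mt-Co3*, and 4.4% of all genes were called higher. Without GFP replicate 1 the number was 6 (9.09% of all genes), and without YAP6SA replicate 1 or 2 it was 5 (11.5%) and 6 (11.6%). A fit of only the 4 libraries of GFP and YAP5SA called 6 (11.8%). Unadjusted p was under 0.05 for 10, and for 19.4% of all genes in the upward direction. With *mt-Co2*, *mt-Co3* and *mt-Atp6* set aside, all of the other 7 were called in the fit of all libraries.

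In YAP6SA OE CMs, 0 of the 10 were called against GFP by edgeR, and the lowest FDR was 0.219, for *mt-Nd6*. The median log2 fold change was 0.79, with a range of 0.71 to 1.16, and all 10 had an unadjusted p under 0.05, as 3.86% of all genes did in the upward direction. Of all genes tested, 0.045% were called higher. *mt-Nd6* had a log2 fold change of 1.03 ± 0.18, *mt-Cytb* of 0.82 ± 0.22 and *mt-Co1* of 0.75 ± 0.26. The median difference was 0.61 in batch 1 and 0.93 in batch 2, and all 10 were higher than GFP in both. A fit of only the 4 libraries of GFP and YAP6SA, again with the batch term, called 8 of the 10 higher, and 1.31% of all genes. DESeq2 called 7 (0.3% of all genes), edgeR's likelihood ratio test 4 (0.405%) and limma-voom 0, and without a filter on low counts edgeR called 9 (0.398%). In the edgeR fit, 7 were called without YAP5SA replicate 1 (0.959%) and 8 without YAP5SA replicate 2 (1.17%). The same 2 GFP libraries served in the comparisons with both variants, so these are not independent of each other.

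**Figure D3:**
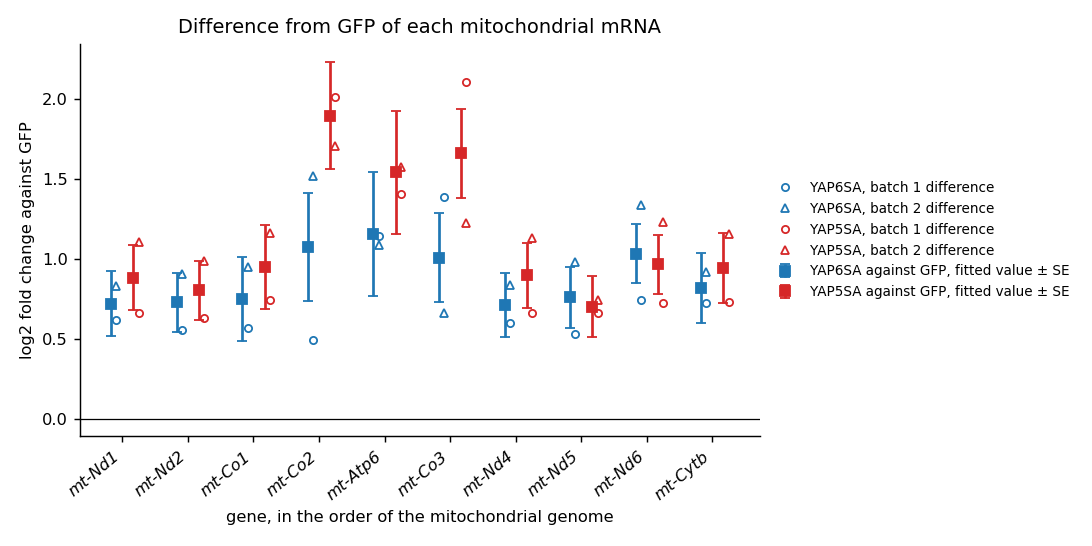
Log2 fold change of each mRNA against GFP in YAP6SA (blue) and YAP5SA OE CMs (red). Squares with bars are the fitted value and its standard error, open circles and triangles the differences within batches 1 and 2. Every point lies above 0, between 0.49 and 2.11, and the largest values are those of *mt-Co2*, *mt-Co3* and *mt-Atp6* in YAP5SA OE CMs.

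Between the variants, 0 of the 10 were called, at a background of 9.0% of all genes higher in YAP5SA and 5.68% lower, and 2 had an unadjusted p under 0.05, as 16.4% of all genes did in the upward direction. DESeq2 and limma-voom called 0 as well. *mt-Co2* was called with no filter on low counts (5.81% of all genes) and without YAP5SA replicate 2 (5.73%). The median log2 fold change of YAP5SA over YAP6SA was 0.17. *mt-Nd5* and *mt-Nd6* were below 0, with -0.06 ± 0.19 and -0.07 ± 0.18, and *mt-Nd1*, *mt-Nd2*, *mt-Nd4*, *mt-Cytb* and *mt-Co1* ranged from 0.08 to 0.20. *mt-Co2* had 0.83 ± 0.33 (FDR 0.118) and *mt-Co3* 0.65 ± 0.27 (FDR 0.131), the 2 with an unadjusted p under 0.05. The difference in *mt-Co2* was 1.52 within batch 1 and 0.19 within batch 2. It was 0.26 without YAP6SA replicate 1, 1.47 without YAP6SA replicate 2, 0.40 without YAP5SA replicate 1 and 1.28 without YAP5SA replicate 2. For *mt-Co3* the difference was 0.72 and 0.57 within the batches. The standard errors were 0.18 to 0.37, and a p that misses the threshold does not show that the levels were equal.

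The copies of *mt-Co2*, *mt-Co3* and *mt-Atp6* in the nuclear genome had counts of the same order as the genes. *Gm28661* had 109 and 165 counts in GFP, 202 and 263 with YAP6SA, and 331 and 352 with YAP5SA, beside the 101 and 88, 148 and 276, and 329 and 340 of *mt-Co2*. *Gm28437* had 58 and 95, 148 and 196, and 269 and 266 counts, and *Gm10925* 51 and 44, 81 and 128, and 134 and 153. Among the 6 chromosome 1 copies that passed the filter, 4 were called higher in YAP5SA OE CMs (12.8% of all genes), with a median log2 fold change of 1.54, and 0 in YAP6SA OE CMs, where the median was 1.07. *Gm29216*, beside *mt-Co1*, rose against GFP by a log2 fold change of 1.60 ± 0.28 (FDR 0.00451) and was also higher than in YAP6SA OE CMs, by 1.03 ± 0.27 (FDR 0.0333). *Gm28439* and *Gm28438*, the copies of *mt-Nd4* and *mt-Nd3*, had at most 85 and 81 counts in a library and were not called. On chromosome 2, *Gm13340* and *Gm13341* were called higher in YAP5SA OE CMs, with log2 fold changes of 1.24 ± 0.26 (FDR 0.00928) and 1.42 ± 0.32 (FDR 0.0133). *Gm10222* and *Gm13339* reached at most 25 and 21 counts. Which locus the reads on these genes and copies came from was not tested.

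**Figure D4:**
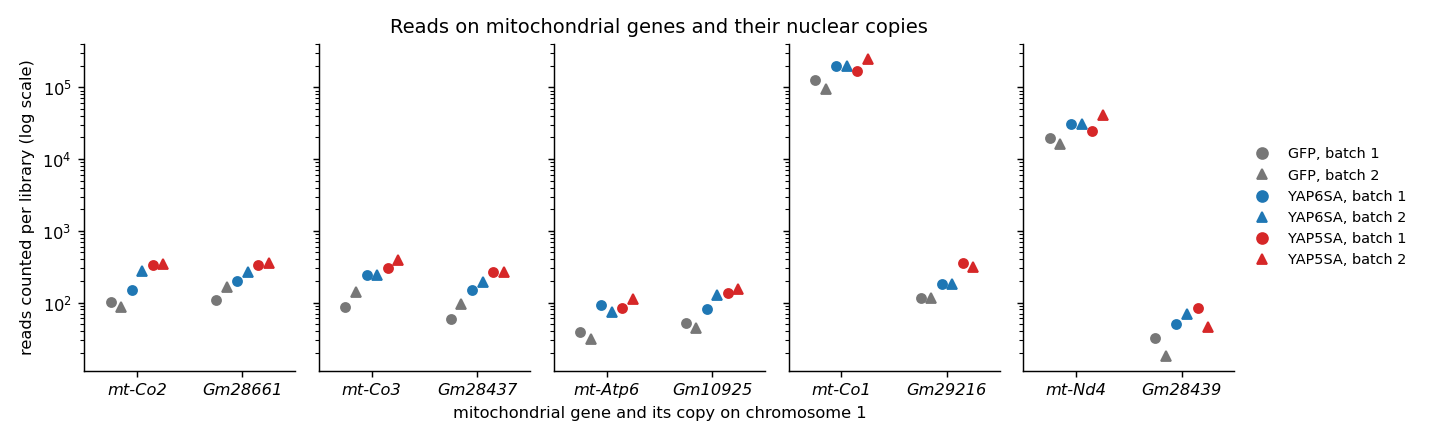
Reads counted (log axis) on 5 mitochondrial genes and on the copy of each on chromosome 1, in the 6 libraries (grey GFP, blue YAP6SA, red YAP5SA; circles batch 1, triangles batch 2). *mt-Co2*, *mt-Co3* and *mt-Atp6* are level with their copies, whereas *mt-Co1* and *mt-Nd4* lie far above theirs.

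The other 3 mitochondrial mRNAs had few counts. *mt-Nd3* had 4 to 21 counts in a library, *mt-Nd4l* 5 to 13 and *mt-Atp8* 2 to 9, all below the filter. The window search found 2.41% of *mt-Nd3* and 1.52% of *mt-Nd4l* once, but 100% of *mt-Atp8*, which is 204 bases long and overlaps *mt-Atp6*. That search saw annotated transcripts only. *mt-Atp8* begins between *mt-Co2* and *mt-Atp6*, whose starts are 914 bases apart. The starts of their copies *Gm28661* and *Gm10925* on chromosome 1 are 914 bases apart as well. Whether the unannotated stretch between these copies matches *mt-Atp8* was not tested. Of the 22 mitochondrial tRNAs, 21 had 0 counts in every library. *mt-Tp* had 38 and 74 counts in GFP, 69 and 111 with YAP6SA, and 53 and 217 with YAP5SA. The mitochondrial rRNAs divided by batch. *mt-Rnr2*, the large ribosomal RNA, had 131 and 205 CPM in GFP, 172 and 302 with YAP6SA, and 175 and 615 with YAP5SA, so that every batch 1 library was below every batch 2 library. Its log2 fold change in YAP5SA OE CMs was 1.04 ± 0.25 (FDR 0.0181), but 0.42 within batch 1 and 1.58 within batch 2. *mt-Rnr1*, the small ribosomal RNA, had 70.0 and 111 CPM in GFP, 74.5 and 139 with YAP6SA, and 62.3 and 284 with YAP5SA, and was not called (FDR 0.149). Within batch 1 it was lower in YAP5SA than in GFP, by a log2 difference of -0.17.

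Of 17 nuclear genes for mitochondrial DNA maintenance and transcription, 0 were higher and 3 were lower in YAP5SA OE CMs than in GFP (12.8% of all genes were higher and 9.18% lower), with a median log2 fold change of -0.32. These were *Mterf2* (-1.01 ± 0.28, FDR 0.0284) and *Mterf3* (-0.54 ± 0.16, FDR 0.0341), of the mitochondrial transcription termination factor family, and *Tefm* (-0.71 ± 0.22, FDR 0.0417), a transcription elongation factor. *Polrmt* had 191 and 183 CPM in GFP, 171 and 222 with YAP6SA, and 138 and 122 with YAP5SA. It was lower with YAP5SA than with YAP6SA (-0.59 ± 0.17, FDR 0.0459), and against GFP it stood at -0.52 ± 0.17 (FDR 0.0548). *Tfam*, which packages mitochondrial DNA and starts its transcription, had 61.0 and 58.4, 57.9 and 48.9, and 51.6 and 49.5 CPM and was not called in any comparison.

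Of 19 tested genes for mitochondrial RNA processing and decay, 0 were higher and 6 were lower in YAP5SA OE CMs, with a median of -0.28, where 12.8% of all genes were higher and 9.18% lower. The largest were in *Fastkd1* (-0.85 ± 0.17, FDR 0.00834), *Ptcd1* (-0.79 ± 0.23, FDR 0.0375) and *Grsf1* (-0.72 ± 0.17, FDR 0.0142), which encode RNA-binding proteins of mitochondria. Of 12 translation factors, 3 were lower (9.18% of all genes), with a median of -0.47, namely the initiation factor *Mtif2* (-0.78 ± 0.19, FDR 0.0162) and the elongation factor G genes *Gfm1* and *Gfm2* (-0.65 ± 0.15 and -0.58 ± 0.17, FDR 0.0143 and 0.0356). Among 10 regulators of mitochondrial biogenesis, with the same shares over all genes, *Pprc1* was higher (0.97 ± 0.17, FDR 0.00462) and 3 were lower, the coactivator *Ppargc1b* (-1.25 ± 0.17, FDR 0.00120) and the nuclear receptors *Esrra* (-1.004 ± 0.19, FDR 0.00555) and *Esrrb* (-1.42 ± 0.44, FDR 0.0459). *Ppargc1a* had 116 and 176 CPM in GFP, 355 and 136 with YAP6SA, and 94.7 and 66.5 with YAP5SA, and was lower with YAP5SA than with YAP6SA (-1.55 ± 0.36, FDR 0.0187). In YAP6SA OE CMs, 0 genes of these 4 lists were called against GFP by edgeR in either direction, and 0 had an unadjusted p under 0.05. Against YAP6SA, YAP5SA OE CMs had lower *Mterf2*, *Ptcd1*, *Grsf1*, *Fastkd1*, *Mtif2*, *Ppargc1b* and *Esrra* (-0.65 to -1.09) and higher *Pprc1* (0.68 ± 0.17, FDR 0.0260), all called.

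Of 77 nuclear subunits of complexes I, III, IV and V, 9 rose and 6 fell against GFP in YAP5SA OE CMs, near the 12.8% higher and 9.18% lower of all genes, with a median log2 fold change of 0.10, against 0.95 for the 10 mitochondrial mRNAs. In complex I, *Ndufa1* (0.88 ± 0.18, FDR 0.00869), *Ndufa2* and *Ndufb7* were among 4 higher subunits. *Ndufb10* (-0.79 ± 0.18, FDR 0.0132), *Ndufv1* and *Ndufs3* were among 5 lower ones. *Uqcr11* of complex III (0.70 ± 0.21, FDR 0.0358), *Cox7a2*, *Cox7c* and *Ndufa4* of complex IV (0.78, 0.56 and 0.53) and *Atp5o* of complex V (0.51 ± 0.16, FDR 0.0475) were higher. *Atpif1*, the inhibitor of ATP synthase, was lower (-0.53 ± 0.16, FDR 0.0404). In YAP6SA OE CMs 0 of the 77 were called against GFP by edgeR. The fit of only the 4 libraries of GFP and YAP6SA called 3 subunits of complex I, 1 of complex III, 3 of complex IV and 1 of complex V (1.31% of all genes were higher). With no filter on low counts, 1 subunit of complex I and 0 of complexes III, IV and V were called (0.398% of all genes were higher). In the fit of all libraries the median was 0.32, 73 of the 77 had a log2 fold change above 0 against 50.3% of all genes, and 26 had an unadjusted p under 0.05, all upward, as 3.86% of all genes did. Against YAP6SA, 0 of the 77 were higher and 9 lower in YAP5SA OE CMs (9.0% and 5.68% of all genes), *Ndufb10*, *Ndufv1* and *Ndufs5* of complex I by the most in that complex, and *Atp5l* of complex V (-0.63 ± 0.14, FDR 0.0181).

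Lists of mRNAs that are translated in the cytoplasm, and of RNAs that stay in the nucleus, were read beside the mitochondrial mRNAs. Whether these lists follow the amount of cytoplasm in the preparation was not tested. The 79 mRNAs of cytosolic ribosomal proteins, short and stable cytoplasmic messages, summed to 6653 and 5871 CPM in GFP, 8230 and 6569 with YAP6SA, and 9510 and 12748 with YAP5SA. In YAP5SA OE CMs 69 of the 79 were higher than in GFP (12.8% of all genes), with a median log2 fold change of 0.88, among them *Rps16* (1.28 ± 0.24, FDR 0.00598) and *Rpl10a* (1.14 ± 0.23, FDR 0.00858). Within batches the median was 0.51 and 1.11. In YAP6SA OE CMs 0 were called by edgeR and 5 had an unadjusted p under 0.05, at 3.86% of all genes upward. The fit of only the 4 libraries called 1 (1.31% of all genes were higher). The median was 0.26, with 0.34 in batch 1 and 0.18 in batch 2, whereas that of the mitochondrial mRNAs was 0.61 and 0.93. Between the variants, 15 of the 79 ribosomal protein mRNAs were higher in YAP5SA (9.0% of all genes), with a median of 0.57 and the largest changes in *Rpl10a*, *Rps16* and *Rpl12* (1.07, 0.86 and 0.85), against 0 of the 10 mitochondrial mRNAs with a median of 0.17.

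The 14 abundant cytoplasmic mRNAs of CMs summed to 50283 and 63783 CPM in GFP, 52674 and 66051 with YAP6SA, and 46883 and 34440 with YAP5SA. Their median log2 fold change was 0.35 in YAP6SA OE CMs, with 0 called by edgeR and 4 at an unadjusted p under 0.05 (3.86% of all genes upward). The number called was 4 with no filter on low counts (0.398% of all genes were higher) and 4 in the fit of only the 4 libraries (1.31%). DESeq2 called 1 (0.3%). The median was -0.18 in YAP5SA OE CMs, where 12.8% of all genes were higher and 9.18% lower, and where *Tpm1* (0.84 ± 0.21, FDR 0.0186) and *Cryab* (0.54 ± 0.16, FDR 0.0412) were higher and *Ckmt2*, the mitochondrial creatine kinase, was lower (-0.58 ± 0.17, FDR 0.0335). Against YAP6SA, *Ckm*, *Mb* and *Fabp3* were lower with YAP5SA (-1.14, -0.78 and -0.72, with 5.68% of all genes lower). Long noncoding RNAs that stay in the nucleus summed to 5028 and 6094 CPM in GFP, 6415 and 5152 with YAP6SA, and 5265 and 5488 with YAP5SA, with *Neat1* the most abundant. Of the 7 tested, *Mirg*, *Rian* and *Meg3*, all transcribed from the same imprinted locus, were higher in YAP5SA OE CMs (1.65, 1.30 and 1.04, with 12.8% of all genes higher). Within batch 1 the differences of *Mirg*, *Rian* and *Meg3* were 0.52, 0.75 and 0.47, and within batch 2 they were 2.70, 1.78 and 1.57. *Meg3* and *Rian* were also higher than with YAP6SA (1.0004 and 0.94, with 9.0% of all genes higher). *Malat1* had 850.2 and 861 CPM in GFP, 884 and 1068 with YAP6SA, and 743 and 818 with YAP5SA. The part of cytoplasmic carry-over in the mitochondrial values was not tested. Amounts of mitochondrial RNA per cell and of cytoplasm per nucleus cannot be told apart in these libraries.

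**Figure D5:**
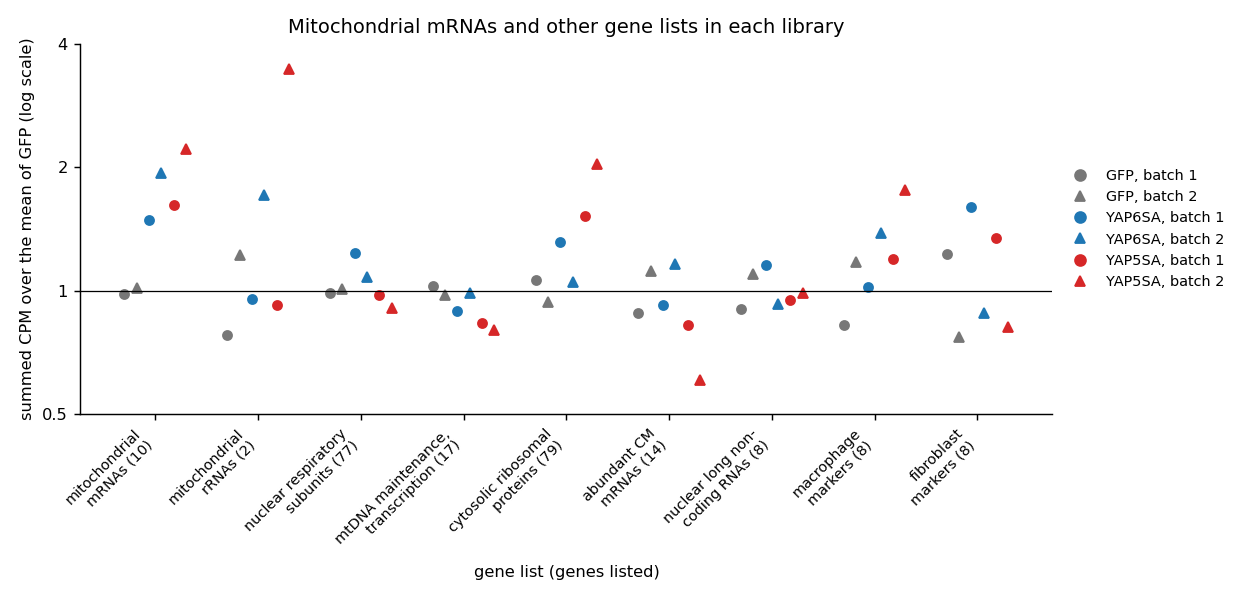
Summed CPM of 9 gene lists in each library, divided by the mean of the 2 GFP libraries (log axis; the number of genes listed is in brackets, colours and symbols are those of the plot of scaled levels). All 4 variant libraries stand above GFP for the mitochondrial mRNAs, at 1.49 to 2.22 times, whereas the rRNAs divide by batch and the nuclear respiratory subunits lie between 0.906 and 1.24 times.

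Markers of other cell types were detected, and their levels do not give the share of a cell type. Of the 8 macrophage markers, 7 passed the filter and *Lyz2* (1.43 ± 0.27, FDR 0.00611) and *C1qa* (0.96 ± 0.25, FDR 0.0228) were higher in YAP5SA OE CMs (12.8% of all genes). The list summed to 65.7 and 93.8 CPM in GFP, 81.3 and 110 with YAP6SA, and 95.2 and 141 with YAP5SA, with *Csf1r* the most abundant, at 20.1 to 37.1 CPM. The 8 fibroblast markers summed to 1363 and 857, 1771 and 981, and 1491 and 903 CPM, with *Col3a1* the most abundant, and 0 were called by edgeR in either variant. At an unadjusted p under 0.05, 3 of them were higher in YAP6SA OE CMs (3.86% of all genes), and 2 were higher (19.4%) and 1 lower in YAP5SA OE CMs. Of the 8 endothelial markers, which summed to 319 and 245, 422 and 286, and 358 and 319 CPM, the most abundant, *Fabp4*, was higher in YAP5SA OE CMs (0.59 ± 0.18, FDR 0.0394, with 12.8% of all genes higher). The 7 mural markers summed to 510.1 and 572, 578 and 593, and 448 and 351 CPM. In YAP5SA OE CMs *Myh11* was higher (1.00 ± 0.27, FDR 0.0274) and *Abcc9*, the most abundant, was lower (-0.81 ± 0.22, FDR 0.0287), where 12.8% of all genes were higher and 9.18% lower. Of the 8 erythroid markers, 7 were in the table and 2 passed the filter, and they summed to 49.1 and 60.2, 63.8 and 25.1, and 47.1 and 31.8 CPM, with *Hbb-bs* the most abundant and 0 called by edgeR, none of them at an unadjusted p under 0.05. No marker of these lists had 0 counts in all libraries. The other 5 tested macrophage markers were not called in YAP5SA OE CMs. The part of other cell types in the result was not tested. Among the 12 CM markers, *Nppa*, a natriuretic peptide gene, was higher in YAP5SA OE CMs (1.18 ± 0.23, FDR 0.00744), and *Pln* and *Ryr2*, of calcium handling, were lower (-1.04 ± 0.21 and -0.81 ± 0.25, FDR 0.00784 and 0.0455). The shares over all genes were again 12.8% higher and 9.18% lower. *Nppa*, *Pln*, *Ryr2*, *Myh11* and *Abcc9* were called in the same direction against YAP6SA (9.0% of all genes were higher and 5.68% lower). In YAP6SA OE CMs 0 of the marker genes were called against GFP by edgeR. At an unadjusted p under 0.05, 2 endothelial, 1 macrophage, 1 mural and 1 CM marker were higher (3.86% of all genes). The fit of only the 4 libraries called 2 endothelial, 1 mural and 1 CM marker (1.31% of all genes were higher).

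Genes outside the mitochondrial genome were ranked by the correlation of their log2 CPM with the mean log2 CPM of the 10 mRNAs over the 6 libraries, among the 9893 whose mean log2 CPM reached 3. Among the 10 highest were *Sgce*, *Cdk16*, *Atxn2l*, *Erg28*, *Clns1a*, *Ssr1*, *Aamp*, *Fxyd6* and *Maz*, with Pearson r from 0.990 down to 0.966. The libraries share groups and batches, and with 6 points chosen from so many genes these values are a description of likeness alone. *Sgce*, a sarcoglycan of the muscle membrane complex, had 16.3 and 17.6 CPM in GFP, 20.2 and 25.4 with YAP6SA, and 22.0 and 27.3 with YAP5SA. The order of its libraries was that of the mean log2 CPM of the 10 mRNAs, but over a narrower range. Not every single mRNA had this order, and *mt-Nd5* and *mt-Nd6* were highest in a YAP6SA library.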

How the data were processed

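Poly-A RNA from PCM-1-bound CM nuclei was sequenced for the authors by Novogene, and STAR was used for mapping to mm10 with the annotation of Ensembl release 94. The values deposited by the authors are raw read counts for each gene and library, neither filtered nor normalized. Reads that mapped to several places (2.90% to 4.19% of a library), were ambiguous between genes (5.79% to 6.31%), lay outside genes (9.43% to 9.84%) or were unmapped (3.03% to 3.63%) are not in the gene counts and stayed out of library sizes and tests. The read length is not given in the sources used here.

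Gene names and coordinates came from GENCODE M21 (GRCm38). Genes with a median log2 CPM over 1 in at least 1 group were kept, which left 13323. The quasi-likelihood test of edgeR 4.0.16 in R 4.3.3, after TMM scaling, was run on these with Benjamini-Hochberg adjustment over all of them and with all 6 libraries in 1 model of group and batch. The pairing by batch comes from the labels. Deviations from the group mean correlated across genes between libraries of 1 batch, at 0.368 (GFP and YAP6SA), 0.0985 (GFP and YAP5SA) and 0.175 (YAP5SA and YAP6SA). The 2 libraries of a group gave a chi-square of 25.3 to 39.6 per degree of freedom, where sampling noise alone gives about 1, so none was a copy of another. Batch differences are differences of log2 CPM with a prior count of 2. A gene with 0 counts could have had up to 3, which is 0.153 to 0.206 CPM depending on the library, for counting error alone.

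Unique sequence was counted as windows of 50, 100 and 150 bases of each mitochondrial gene that occur once among the GENCODE M21 transcripts; the genome sequence was not searched, and stretches outside annotated transcripts were not seen. The pipeline was tested on simulated data.

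Named were the 10 mRNAs, other mitochondrial genes with counts, copies with at least 10 counts in a library, from each list up to 3 called genes in each direction with the largest change, and the most abundant gene of each marker list. *Polrmt*, *Tfam*, *Malat1* and the values of *Ppargc1a* in GFP are given beyond this rule. Some genes that the rule selects are not reported here. The members, lists and tests were chosen with earlier results of these data known. Alternatives were other scalings (RLE, upper quartile, scaling without mitochondrial genes), filters, DESeq2 1.42.0, limma-voom (limma 3.58.1), the likelihood ratio test, no batch block, fits of the 4 libraries compared, other thresholds and each library left out. Counting only the 7 mRNAs with windows found once was an alternative chosen after seeing the data.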

Additional observations from a re-analysis of the deposited data

Results flagged for a closer look

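Reads that mapped to several places are not part of the gene counts. Of all reads, 2.90% and 3.07% were of this kind with GFP, 3.43% and 3.69% with YAP6SA, and 3.39% and 4.19% with YAP5SA. The means were 2.99% (GFP), 3.56% (YAP6SA) and 3.79% (YAP5SA), and every variant library was above both GFP libraries. Where these reads mapped is not given in the table, and the part of the mitochondrial genome in them was not tested. With 2 libraries per group, outlying libraries were not looked for.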

How the results depend on the processing

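All log2 fold changes of the 10 mRNAs against GFP were above 0 in all 160 values refitted for either variant, while calls changed. For YAP6SA against GFP (0 called), the number called was 9 with no filter on low counts, 4 by the likelihood ratio test, 7 by DESeq2 and 8 in the fit of 4 libraries, and 0 to 8 with 1 library left out. For YAP5SA against GFP (10 called) it was 6 without the replicate block, 6 in the fit of 4 libraries, 3 at a threshold of 0.01, and 2 to 10 with 1 library left out. For YAP5SA against YAP6SA (0 called) it was 1, *mt-Co2*, with no filter, and 0 to 1 with 1 library left out, when *mt-Co2* was called without YAP5SA replicate 2. The cause was not tested. The block changed no other of these 3 counts. With 1 library left out, the library that remains in its group was assumed to vary like the others. Scaling by RLE, upper quartile or without the mitochondrial genes, the filter of at least 10 counts and limma-voom left all 3 counts as they were. Counts over all genes in either direction ran from 0 to 236 for YAP6SA against GFP (6 as reported), from 788 to 4799 for YAP5SA against GFP (1708 higher and 1223 lower as reported) and from 410 to 4098 for YAP5SA against YAP6SA (1199 higher and 757 lower).

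With all reads of the table as the denominator, the share of the 10 mRNAs was 0.925% (GFP), 1.58% (YAP6SA) and 1.87% (YAP5SA), and without the 10 most abundant other genes it was 1.30% in GFP. With 1 library left out, it was 1.16% to 1.21% in GFP, 1.82% to 2.27% in YAP6SA and 2.05% to 2.81% in YAP5SA. Per 1000 windows found once, the GFP level was 659 for *mt-Nd2*, 6471 for *mt-Co1*, 2059 for *mt-Nd4* and 410.2 for *mt-Nd6*, and *mt-Co2*, *mt-Co3* and *mt-Atp6* had too few such windows for a value. Counts of at most 390 in a library limit the precision of these 3 genes, and with 1 GFP library left out the level per kb of *mt-Co3* was 5.81 to 11.8.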
